A study of Mus musculus with 16 samples.

Results

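Glycolysis enzymes and the glucose transporter Glut1 were followed across inguinal and epididymal white fat of obese mice fed with or without a plant extract. The set was chosen by gene symbol and held 9 genes, in capitals SLC2A1 (Glut1), HK2, PFKL, ALDOA, TPI1, GAPDH, PGK1, LDHA and LDHB, which are written below as mouse symbols. Probes were matched by the array's gene name, without regard to case, as the current symbol or an older synonym. A probe was found for 7 of the 9 genes, out of 17916 genes with a probe on the array, and no probe name matched Hk2 or Ldhb. Of these 7, Slc2a1, Pfkl, Aldoa, Tpi1, Gapdh and Ldha were detected on all 16 arrays and were tested among 11050 genes. The only Pgk1 probe was detected on 1 of 16 arrays, an iWAT control array, so that Pgk1 was not well above background and was not tested.

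All groups were singly housed male C57BL/6J mice with diet-induced obesity, aged 17 weeks when test feeding started and 21 weeks when killed. For those 4 weeks every mouse ate freely a feed in which fat made up 60% of the calories. Control mice received this feed unsupplemented, and scoparia mice received it with Artemisia scoparia extract added at 1% by weight. Inguinal fat (iWAT) lies under the skin and epididymal fat (eWAT) inside the abdomen, and 4 bead arrays were run for each combination of depot and diet. Sample descriptions carry the numbers 1 to 4 for control and 16, 17, 18 and 20 for scoparia mice in iWAT as in eWAT. These were taken as animal numbers of 8 mice with 1 array from each depot. Arrays are named here by group and replicate 1 to 4. The comparisons ask how the extract altered these genes in each depot and how the depots differed.

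Glucose enters fat cells through facilitative transporters of the GLUT family: Glut1 is the widespread basal transporter, while Glut4 (Slc2a4) moves to the surface after insulin. Hexokinase traps glucose as glucose 6-phosphate, phosphofructokinase makes the committed step, aldolase and triose phosphate isomerase form triose phosphates, Gapdh and phosphoglycerate kinase yield NADH and ATP, and lactate dehydrogenase turns pyruvate into lactate. In white fat this pathway supplies glycerol 3-phosphate for triglyceride, acetyl-CoA for fatty acid synthesis and lactate that is released. Many of its genes are known targets of the oxygen-regulated factor HIF-1, whose binding sites share the core ACGTG or GCGTG, and of factors that bind the E-box CACGTG.

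Promoters are shown because the known regulators of this pathway bind there. The part of these regulators in the values of the members was not tested. The sequences are the 250 bases before the annotated start in RefSeq, build GRCm38.p6, given on the gene's own strand. RefSeq promoters were matched for all 9 genes, and the 4 shown belong to Slc2a1, the only transporter in the set, Pfkl, the only member that passed a test, Gapdh, a frequent reference gene, and Ldha, whose promoter held the most matches. Capitals mark every match to ACGTG or GCGTG on either strand (CACGT and CACGC on the other strand), and CACGTG, which holds ACGTG on both strands, is marked whole.
Slc2a1, chr4:119108495-119108744, plus strand: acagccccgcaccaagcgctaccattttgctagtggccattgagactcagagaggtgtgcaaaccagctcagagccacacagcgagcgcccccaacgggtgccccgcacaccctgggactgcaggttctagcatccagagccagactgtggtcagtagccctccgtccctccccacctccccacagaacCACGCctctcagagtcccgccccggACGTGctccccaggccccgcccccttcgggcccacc
Pfkl, chr10:78009808-78010057, minus strand: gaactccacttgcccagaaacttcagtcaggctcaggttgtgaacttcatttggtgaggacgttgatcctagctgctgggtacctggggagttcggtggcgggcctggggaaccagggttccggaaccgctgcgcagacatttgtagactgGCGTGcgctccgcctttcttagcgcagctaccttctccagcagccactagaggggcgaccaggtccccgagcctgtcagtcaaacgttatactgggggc
Gapdh, chr6:125165774-125166023, minus strand: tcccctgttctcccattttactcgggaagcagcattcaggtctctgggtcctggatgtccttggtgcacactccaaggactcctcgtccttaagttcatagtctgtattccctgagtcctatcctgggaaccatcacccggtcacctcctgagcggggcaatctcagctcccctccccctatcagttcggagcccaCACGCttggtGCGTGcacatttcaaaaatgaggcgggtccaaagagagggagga
Ldha, chr7:46845554-46845803, plus strand: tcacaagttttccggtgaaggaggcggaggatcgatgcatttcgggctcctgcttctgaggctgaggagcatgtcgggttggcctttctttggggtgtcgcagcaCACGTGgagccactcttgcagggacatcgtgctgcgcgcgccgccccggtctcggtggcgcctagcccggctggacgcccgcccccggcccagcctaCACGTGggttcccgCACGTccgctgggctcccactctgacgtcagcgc

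The Ldha promoter shown held CACGTG at 145 and at 48 bases before the start and a further match to ACGTG at 34 bases. RefSeq lists a second Ldha start, at whose window (chr7:46846832-46847081) there was 1 match, GCGTG at 59 bases, and none to ACGTG or CACGTG. The Slc2a1 promoter held GCGTG at 61 and ACGTG at 36 bases, the Gapdh promoter held GCGTG at 54 and 44 bases, and the Pfkl promoter held 1 match, GCGTG at 99 bases. No match lay in the corresponding window of Tpi1. Among 32851 RefSeq promoter windows of the same length, 16.6% held ACGTG, 28.2% held GCGTG, 38.6% held either core and 6.0% held CACGTG, so that a match to either core is common. These are matches of letters and not measured binding.

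The share of probes detected ran from 50.5% to 56.2%, and the number of arrays limited the precision. Values are log2 signals after background correction and quantile normalization, differences are log2 differences ± SE, group means are ± SD, and a gene was called at an adjusted p under 0.05 over all genes tested. The 95% intervals were built from the SE with the normal distribution. They are therefore narrower than the t distribution behind the p values would give. A level is not comparable between genes, since each probe has its own affinity. The fat label held: all 12 adipocyte markers were detected on every array of every group. Several arrays stood apart. iWAT control arrays 1 and 4 were the highest pair of that group for all 5 enzymes. eWAT control array 2 had a mean of 11 macrophage markers of 10.35, below the 11.92 to 12.46 of the other 3 eWAT control arrays and near the 9.38 to 9.94 of iWAT. eWAT control array 3 had the highest macrophage mean (12.46). Skeletal muscle markers averaged 11.11 on iWAT control array 3 and 5.10 to 5.75 in eWAT control mice. The mean of 7 B cell markers ran from 5.42 to 8.73 in iWAT control and from 6.97 to 10.39 in iWAT scoparia mice, and that of 8 T and NK cell markers from 6.94 to 9.56 and from 7.82 to 10.89. For both the highest value was that of iWAT scoparia array 4, and in eWAT the B cell mean stayed between 4.92 and 5.86.

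**Figure D1:**
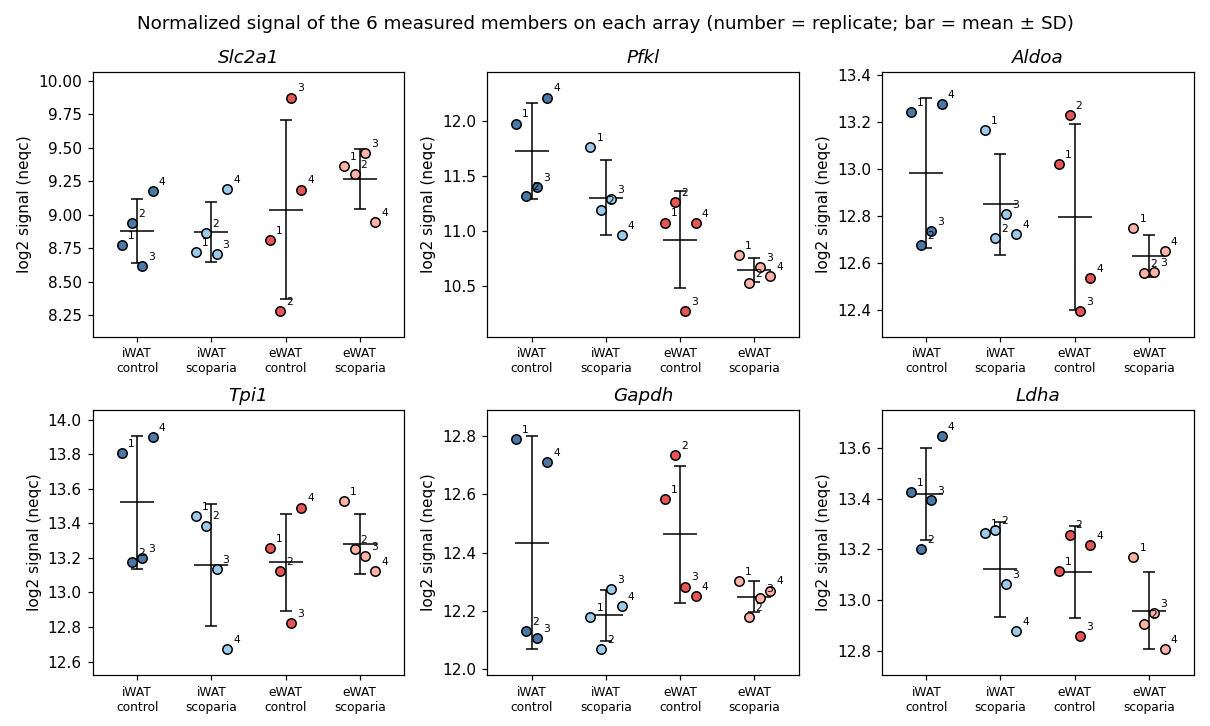
Normalized log2 signal (y axis) of the 6 measured members on each of the 16 arrays, in 4 groups (x axis); numbers give the replicate, and bars give the mean ± SD of 4 arrays. Pfkl lies higher in iWAT than in eWAT with no overlap within either diet, and iWAT control arrays 1 and 4 lie on top of their group for the 5 enzymes.

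Pfkl, the liver-type phosphofructokinase, was the member that passed a test, and it was higher in inguinal than in epididymal fat. In iWAT control mice its log2 signal was 11.97, 11.32, 11.40 and 12.21 on arrays 1 to 4, and in eWAT control mice it was 11.08, 11.26, 10.27 and 11.07. In scoparia mice it was 11.77, 11.19, 11.29 and 10.96 in iWAT and 10.78, 10.53, 10.67 and 10.59 in eWAT. Within each diet the lowest iWAT array lay above the highest eWAT array, by the smallest margin in control mice, where iWAT array 2 stood at 11.32 and eWAT array 2 at 11.26. Over both diets Pfkl was higher in iWAT by 0.73 ± 0.17, which is 1.66-fold (95% interval 0.39 to 1.07 on the log2 scale, adjusted p = 0.00552). That all 8 mice had more in iWAT than in eWAT follows from the lack of overlap within each diet and adds no further support. The difference within a mouse ran from 0.054 in control animal 2 to 1.14 in control animal 4. In the same comparison 9 of 9 endothelial markers (7 called) and 10 of 12 adipocyte markers (4 called) lay above 0. So did 7 of 7 B cell (7 called), 7 of 8 T and NK cell (7 called) and 13 of 13 skeletal muscle markers (9 called). All 11 macrophage and all 8 mesothelial markers were called lower in iWAT. Of all genes 53.8% lay above 0, 15.9% were called higher and 13.6% lower. The part of these markers in the Pfkl difference was not tested.

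By diet, the Pfkl depot difference was 0.80 ± 0.24 in control mice (1.75-fold, adjusted p = 0.0274), where Pfkl was 1 of 6 members called beside 24.8% of all genes. It was 0.66 ± 0.24 in scoparia mice (1.58-fold, adjusted p = 0.103), where 0 of 6 members and 10.6% of all genes were called. Of all genes 13.1% were called higher in iWAT of control mice. All 4 iWAT arrays lay above all 4 eWAT arrays for 11.1% of genes in control and 11.1% in scoparia mice. Over both diets 1 of 6 members was called beside 29.5% of all genes (15.9% higher in iWAT and 13.6% lower), so that the members' share did not stand above the background. The control call rested on single arrays: it was lost without iWAT control array 1 (0.72, adjusted p = 0.0756), iWAT control array 4 (0.64, adjusted p = 0.0958) or eWAT control array 3 (0.59, adjusted p = 0.088), and without iWAT arrays 1 and 4 together the difference was 0.44 (adjusted p = 0.30). A second, dimmer Pfkl probe differed by 0.75 in control and 0.10 in scoparia mice, and with the mean of both probes the difference over both diets was 0.58 (adjusted p = 0.0544).

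**Figure D2:**
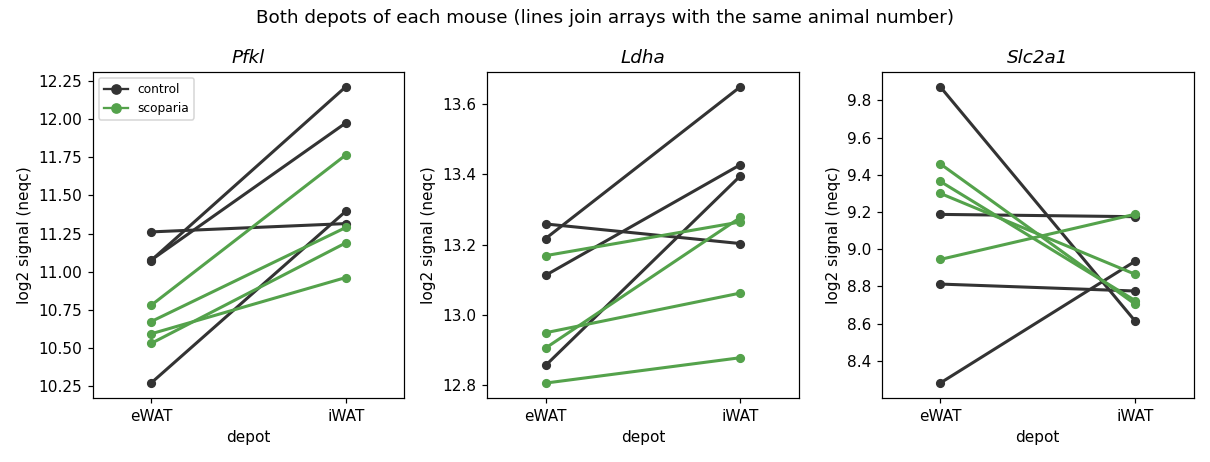
Log2 signal (y axis) of Pfkl, Ldha and Slc2a1 in eWAT and iWAT (x axis), with a line for each of the 8 mice, dark for control and green for scoparia. All 8 Pfkl lines and 7 of 8 Ldha lines are higher in iWAT, and 2 of 8 Slc2a1 lines are. The Pfkl count follows from the lack of overlap within each diet.

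Of the enzymes downstream, Ldha, which forms the muscle-type lactate dehydrogenase subunit, came nearest to Pfkl. Its log2 signal was 13.43, 13.20, 13.40 and 13.65 in iWAT control and 13.11, 13.26, 12.86 and 13.22 in eWAT control mice. In scoparia mice it was 13.26, 13.28, 13.06 and 12.88 in iWAT and 13.17, 12.91, 12.95 and 12.81 in eWAT. The groups overlapped in both diets, and 7 of 8 mice had more Ldha in iWAT. The difference over both diets was 0.24 ± 0.11 (95% interval 0.02 to 0.45) and was not called (adjusted p = 0.113). In control mice alone it was 0.31 ± 0.15 (adjusted p = 0.144), and with median scaling in place of quantile normalization it was 0.74 (adjusted p = 0.0167).

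Aldoa, the main aldolase of muscle and fat, and Tpi1, triose phosphate isomerase, were not called between depots. Aldoa read 13.24, 12.68, 12.74 and 13.28 in iWAT control, 13.02, 13.23, 12.39 and 12.54 in eWAT control, 13.16, 12.70, 12.81 and 12.72 in iWAT scoparia and 12.75, 12.56, 12.56 and 12.65 in eWAT scoparia mice. Its difference over both diets was 0.20 ± 0.14 (95% interval -0.08 to 0.49, adjusted p = 0.295), with iWAT above eWAT in 7 of 8 mice. Tpi1 read 13.81, 13.18, 13.20 and 13.90 in iWAT control, 13.25, 13.13, 12.82 and 13.49 in eWAT control, 13.44, 13.39, 13.13 and 12.67 in iWAT scoparia and 13.53, 13.25, 13.21 and 13.13 in eWAT scoparia mice. For both genes the 4 groups overlapped throughout. The depot difference of Tpi1 was 0.35 ± 0.22 in control mice and -0.12 ± 0.22 in scoparia mice (adjusted p = 0.239 and 0.806), and its other kept probe gave the same signs in all 4 comparisons within a diet or depot.

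Gapdh, glyceraldehyde 3-phosphate dehydrogenase, a gene often used as a reference, had the smallest depot difference of the 6 members over both diets. It read 12.79, 12.13, 12.11 and 12.71 in iWAT control, 12.58, 12.73, 12.28 and 12.25 in eWAT control, 12.18, 12.07, 12.28 and 12.22 in iWAT scoparia and 12.30, 12.18, 12.24 and 12.27 in eWAT scoparia mice. The control arrays spread more widely than the scoparia arrays, with an SD of 0.37 and 0.23 against 0.09 and 0.05. The depot difference over both diets was -0.05 ± 0.12 (95% interval -0.29 to 0.20, adjusted p = 0.803), and 3 of 8 mice had more in iWAT. The sign of this value turned with single control arrays left out.

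Slc2a1 (Glut1) was not called between depots. It read 8.77, 8.93, 8.61 and 9.17 in iWAT control, 8.81, 8.28, 9.87 and 9.19 in eWAT control, 8.72, 8.87, 8.70 and 9.19 in iWAT scoparia and 9.36, 9.30, 9.46 and 8.94 in eWAT scoparia mice. eWAT control mice had by far the widest spread (SD 0.67, against 0.22 to 0.24 in the other 3 groups), with array 2 lowest and array 3 highest of all 16. The difference over both diets was -0.28 ± 0.19 (95% interval -0.64 to 0.08, adjusted p = 0.265), with iWAT above eWAT in 2 of 8 mice. On those same eWAT control arrays the macrophage marker mean was lowest (10.35) on array 2 and highest (12.46) on array 3, and the adipocyte marker mean was highest (12.76) on array 2 and lowest (11.59) on array 3. In eWAT scoparia mice array 4 was likewise lowest and array 3 highest for Slc2a1 and the macrophage mean. In iWAT the order was the other way. Control array 3 had the highest macrophage mean of its group (9.79) and the lowest Slc2a1 (8.61). Scoparia array 4 had the lowest macrophage mean of its group (9.38) and the highest Slc2a1 (9.19). The part of the macrophage and adipocyte markers in the Slc2a1 values was not tested. In whole tissue, fewer cells of a type and less RNA per cell cannot be told apart.

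**Figure D3:**
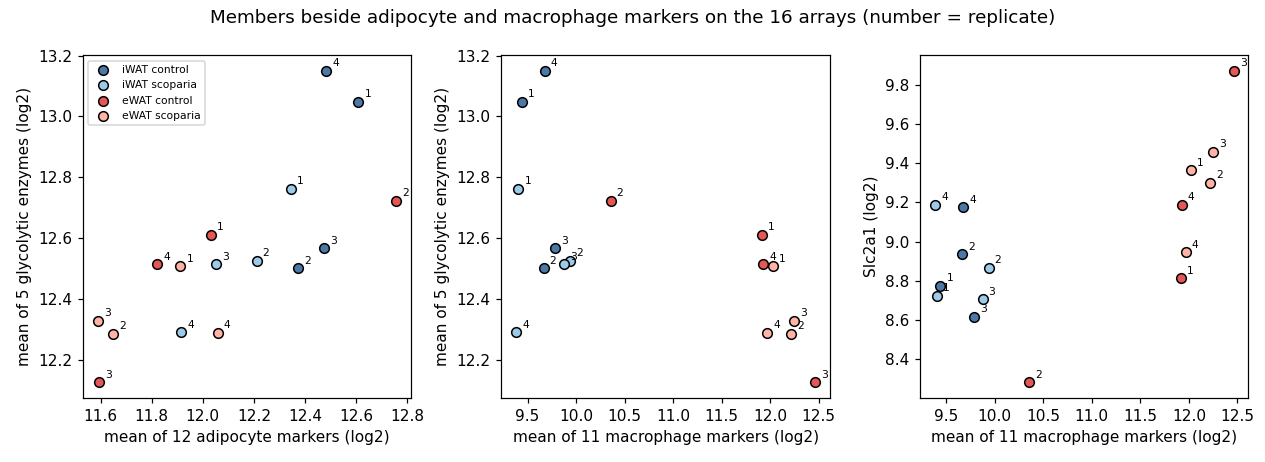
Mean log2 signal of the 5 enzymes (y axis, left and middle) and log2 signal of Slc2a1 (y axis, right) against the mean of 12 adipocyte or 11 macrophage markers (x axes) on the 16 arrays, coloured by group and numbered by replicate. eWAT control array 2 lies apart from the other eWAT arrays in its macrophage mean, at 10.35, and has the lowest Slc2a1 signal, 8.28. Among the iWAT control arrays, array 3 has the highest macrophage mean and the lowest Slc2a1 signal.

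The extract was not followed by a called change of any of the 6 members in iWAT, where 8.8% of all genes were called. All 6 differences, scoparia minus control, were below 0, as were 54.4% of all genes, with a median of -0.27 beside -0.06 over all genes. Pfkl differed by -0.42 ± 0.24 (95% interval -0.90 to 0.06, adjusted p = 0.234), Tpi1 by -0.36 ± 0.22 (-0.79 to 0.06, adjusted p = 0.25) and Ldha by -0.30 ± 0.15 (-0.60 to 0.0037, adjusted p = 0.184). Gapdh differed by -0.25 ± 0.18 (-0.59 to 0.09, adjusted p = 0.326) and Aldoa by -0.13 ± 0.20 (-0.53 to 0.26, adjusted p = 0.668). For Slc2a1 the value was -0.0043 ± 0.26, with an interval of -0.52 to 0.51 and an adjusted p of 0.991. The groups overlapped for each of the 6, while they did not for 13.4% of all genes.

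2 choices bore on the iWAT diet values. With median scaling, which moved the median of all genes to -0.16, Tpi1 (-0.89, adjusted p = 0.0445), Gapdh (-0.72, adjusted p = 0.0451) and Ldha (-0.85, adjusted p = 0.0205) were called lower in scoparia mice, and Pfkl, Aldoa and Slc2a1 were not. That scaling raised the number of all genes called from 972 to 1896. Without iWAT control arrays 1 and 4 together, Aldoa, Gapdh and Slc2a1 turned to 0.14, 0.07 and 0.10, and no member was called. Of all genes 972 were called in the fit of 4 groups, 0 when only the 8 iWAT arrays entered, 5 without control array 1 and 0 without control array 4.

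In eWAT no member was called, and neither was any of the other genes (0%, with 654 of 11050 genes at an unadjusted p under 0.05 and a smallest adjusted p of 0.22 by limma). Slc2a1 differed by 0.23 ± 0.26 (95% interval -0.28 to 0.74) and Tpi1 by 0.11 ± 0.22 (-0.32 to 0.53). Pfkl differed by -0.28 ± 0.24 (-0.75 to 0.20), Gapdh by -0.21 ± 0.18 (-0.56 to 0.13), Aldoa by -0.17 ± 0.20 (-0.57 to 0.23) and Ldha by -0.15 ± 0.15 (-0.46 to 0.15), with adjusted p from 0.934 to 0.969 for the 6. All of these intervals held 0, and with median scaling Aldoa and Ldha lay just above it.

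The diet effect did not differ between depots for any member by the interaction test, under which 0.0543% of all genes (6) passed, and 0 with the animal as a replicate block. The largest value was that of Tpi1, with an effect lower in iWAT by -0.47 ± 0.31 (95% interval -1.07 to 0.14, adjusted p = 0.441). On the mean of both depots per mouse, no member and 0% of all genes were called (2390 genes had an unadjusted p under 0.05 and the smallest adjusted p was 0.157 by limma). Pfkl had the largest difference there, -0.35 ± 0.19 (95% interval -0.72 to 0.02, adjusted p = 0.297). It was called without control animal 3 (-0.51, adjusted p = 0.0482), where 2101 of all genes were called, and with array weights (-0.51, adjusted p = 0.0347), where 2796 were.

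**Figure D4:**
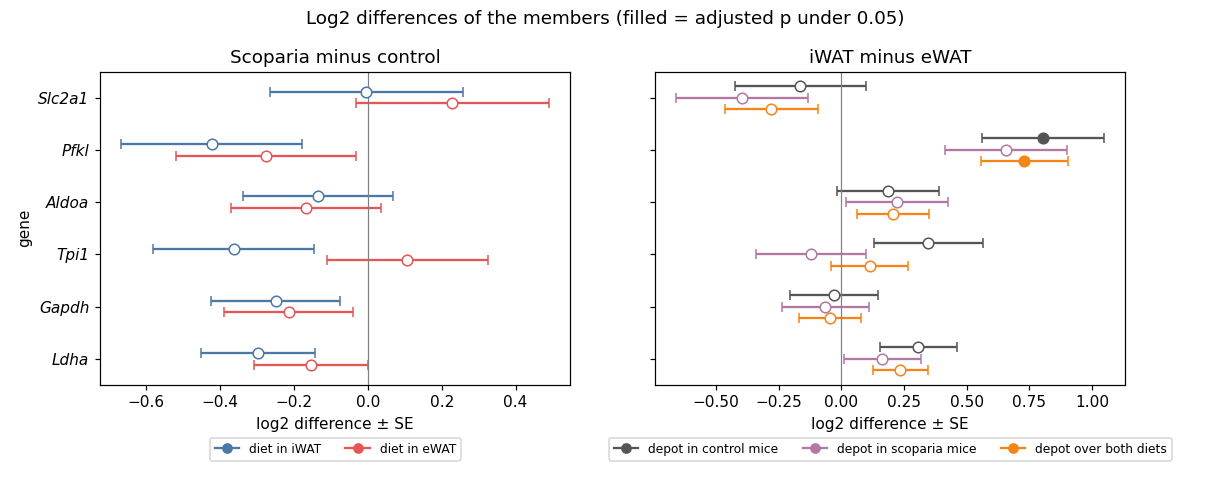
Log2 differences ± SE (x axis) of the 6 members (y axis), scoparia minus control in each depot on the left and iWAT minus eWAT on the right; filled points passed an adjusted p of 0.05. Filled points are those of Pfkl in control mice and over both diets.

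Across the 16 arrays Pearson's r was positive for all 10 pairs of enzymes, as a description of arrays that share depot, diet and animal. Pearson's r was highest for Pfkl with Ldha (0.885) and Pfkl with Aldoa (0.825), and lowest for Gapdh with Ldha (0.43) among the 10 pairs of enzymes. By ranks the same 3 pairs had a rho of 0.862, 0.782 and 0.071. Gapdh also had a low rho with Pfkl (0.097) and Tpi1 (0.193), and one of 0.49 with Aldoa, so that by ranks it varied little with most of the enzymes. Slc2a1 had a negative r with each enzyme, from -0.634 with Aldoa to -0.158 with Tpi1. By ranks its rho was -0.709 with Pfkl, -0.638 with Aldoa and -0.544 with Ldha, but near 0 with Tpi1 (-0.012) and Gapdh (-0.034). In eWAT scoparia mice, array 1 was the highest for 5 of 5 enzymes, in eWAT control mice array 2 was the highest and array 3 the lowest for 4 of 5, and in iWAT scoparia mice array 4 was the lowest for 3 of 5.

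Among 11049 other genes, those with patterns most like a member over the 16 arrays were, for Pfkl, Nos3 (endothelial nitric oxide synthase, r = 0.963) and Aqp7 (the glycerol channel of fat cells, r = 0.954). For Ldha they were Fasn (fatty acid synthase, r = 0.933) and Wdr13 (r = 0.925). For Aldoa they were Gtf2ird1 (r = 0.939) and Inpp5a (an inositol phosphatase, r = 0.931), for Tpi1 Wfdc12 (r = 0.959) and Klc1 (a kinesin light chain, r = 0.956). Gapdh was most like Fkbp1a (the protein that binds FK506, r = 0.957) and Gm6316, which RefSeq lists as a pseudogene (r = 0.951). Slc2a1 was most like Anxa11 (annexin A11, r = 0.930) and an unnamed locus (r = 0.912). An r above 0.5 was reached by 26% of all genes with Pfkl and by 12.3% with Slc2a1.

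Other genes of glucose use were called between depots in both directions. Over both diets, 3 of the 16 other glycolysis enzymes tested were called higher and 4 lower in iWAT, beside 15.9% and 13.6% of all genes, with a median of -0.13 beside 0.04 over all genes. Hk3, a hexokinase of myeloid cells, was lower in iWAT, at 8.34, 7.61, 7.71 and 8.20 in iWAT control against 10.65, 8.69, 11.15 and 10.28 in eWAT control mice (-2.61 ± 0.26 over both diets, 6.10-fold, adjusted p = 5.15e-06). Hk3 and the macrophage mean were both higher in eWAT, and eWAT control array 2 was the lowest of its group for both, while among the iWAT control arrays Hk3 was highest on array 1, where that mean was lowest (9.44). All 11 macrophage markers were lower in iWAT in each diet, and their part in the Hk3 difference was not tested.

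Pfkm, the muscle-type phosphofructokinase, was higher in iWAT by 0.96 ± 0.20 (1.95-fold, adjusted p = 0.00281), although 1 of its 2 other probes had the opposite sign in scoparia mice. Eno3, the muscle enolase, was higher by 1.64 ± 0.37 (3.13-fold, adjusted p = 0.00434). It read 7.23, 8.99, 10.24 and 7.16 on iWAT control arrays 1 to 4, where the mean of 13 skeletal muscle markers was 5.67, 8.41, 11.11 and 6.23. In iWAT scoparia mice Eno3 read 8.95, 7.76, 9.05 and 9.42 and the muscle mean 8.996, 5.58, 8.53 and 6.93. All 13 muscle markers lay above 0 between depots over both diets, as did 53.8% of all genes, and 9 of them were called higher beside 15.9% of all genes; their part in the Eno3 and Pfkm values was not tested. Aldoc, aldolase C, was detected on 0 of 4 iWAT control and 3 of 4 eWAT control arrays. Only a bound can be given for control mice, at least 1.04-fold lower in iWAT, which is close to no difference. It was detected on 1 of 4 iWAT scoparia and 4 of 4 eWAT scoparia arrays, so that it was kept mainly through eWAT. Its call as lower in iWAT therefore compared values at or near background.

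Among 7 glucose transporters and their regulators, Slc2a4 (Glut4) was the gene called over both diets, higher in iWAT by 1.18 ± 0.29 (2.26-fold, adjusted p = 0.00719). It read 10.00, 9.01, 8.93 and 9.66 in iWAT control and 8.03, 9.41, 7.32 and 7.53 in eWAT control mice, so that eWAT array 2 lay among the iWAT arrays. That array had the lowest macrophage mean of its group (10.35) and the highest adipocyte mean of all arrays (12.76). Between depots over both diets 10 of 12 adipocyte markers lay above 0 (4 called), as did 53.8% of all genes. The part of these markers in the values of Slc2a4 and the genes below was not tested. Of 12 genes of lactate and pyruvate, 3 were called higher and 1 lower in iWAT, beside 15.9% and 13.6% of all genes. Hcar1, the lactate receptor of fat cells, was higher by 1.00 ± 0.20 (adjusted p = 0.00198), Pdk2, a kinase that inhibits pyruvate dehydrogenase, by 0.52 ± 0.18 (adjusted p = 0.0393) and Pdhb, a subunit of that enzyme, by 0.37 ± 0.13 (adjusted p = 0.0465). The Pdk2 call held in 12 and the Pdhb call in 11 of 26 alternative settings. Pdp1, the phosphatase that activates it, was lower, at -0.94 ± 0.20 (adjusted p = 0.00238). Of 15 genes of side branches 3 were called higher, a share near the 15.9% of all genes: Ppp1r3c, a glycogen-targeting phosphatase subunit (1.00 ± 0.18), Gpd1, which makes glycerol 3-phosphate (0.83 ± 0.28), and Pgm2, a phosphoglucomutase (0.49 ± 0.12), with adjusted p of 0.00101, 0.036 and 0.00762. The Gpd1 call held in 14 of 26 alternative settings, with an adjusted p of up to 0.198.

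Hif1a, the oxygen-regulated subunit of HIF-1, was the gene called among 9 transcription regulators of the pathway, in both the depot and the diet comparison. This was 1 of 9 beside 8.8% of all genes for diet in iWAT, a share near the background. Between depots 24.8% of all genes were called in control mice and 29.5% over both diets, so that 1 of 9 did not stand above them. It read 7.36, 7.82, 7.91 and 6.75 in iWAT control, 8.69, 8.80, 9.05 and 8.90 in iWAT scoparia, 9.60, 9.64, 8.37 and 8.82 in eWAT control and 8.57, 8.74, 8.94 and 8.27 in eWAT scoparia mice. All 4 iWAT control arrays lay below all 12 others. In iWAT it was higher in scoparia mice by 1.40 ± 0.29 (2.64-fold, adjusted p = 0.019), and in eWAT the difference was -0.48 ± 0.29 (adjusted p = 0.913). The difference of these effects was 1.88 ± 0.41 and was not called (adjusted p = 0.0688). Between depots it was lower in iWAT of control mice, at -1.65 ± 0.29 (3.14-fold, adjusted p = 0.00151), and differed by 0.23 ± 0.29 in scoparia mice (adjusted p = 0.703). The iWAT diet call was lost without iWAT control array 1 or 4 or iWAT scoparia array 3 (adjusted p from 0.0533 to 0.0743) and with the 8 iWAT arrays alone (adjusted p = 0.0902). It was also lost without iWAT control arrays 1 and 4 together, where the difference was 0.998 (adjusted p = 0.198). In the same comparison all 7 B cell markers (median 1.88, 0 called) and all 8 T and NK cell markers (median 1.20, 1 called) lay above 0, and their part in the iWAT diet values of Hif1a and the genes below was not tested. Without iWAT scoparia array 4 the Hif1a difference was 1.39 (adjusted p = 0.0485), which is a check of 1 array and not of these markers.

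Of 19 known HIF-1 targets outside glycolysis tested in iWAT, 1 was called higher and 1 lower with the extract, beside 4.41% and 4.39% of all genes. In iWAT 12 of the 19 differences lay above 0, with a median of 0.07 beside -0.06 over all genes, where 45.6% lay above 0. In eWAT 16 of the 19 lay above 0 (median 0.24 beside 0.03 and 55.9% of all genes), and over both depots 16 did (median 0.27 beside -0.0055 and 49.3%), with 0 of the 19 called in either. All 11 macrophage markers (median 0.32) and 7 of 8 mesothelial markers (median 0.34) also lay above 0 in eWAT, against 3 of 12 adipocyte markers, with 0 called. Their part in the eWAT values was not tested. Ddit4, a stress-induced inhibitor of mTOR complex 1, was higher, at 9.79, 9.25, 9.46 and 10.75 in control against 11.01, 10.91, 10.86 and 10.48 in scoparia mice (1.00 ± 0.27, adjusted p = 0.0373). Its call held in 14 of 27 alternative settings, and leaving out any iWAT array other than control array 3 ended it. P4ha2, a collagen prolyl hydroxylase subunit, was lower, at -0.997 ± 0.22 (adjusted p = 0.0211). Hcar1 was lower as well, at 10.22, 10.54, 10.62 and 10.33 in control against 9.52, 9.07, 8.83 and 9.38 in scoparia mice (-1.23 ± 0.29, adjusted p = 0.0262), as the only called gene of lactate and pyruvate. The mean of the 12 adipocyte markers was also lower in iWAT scoparia (11.92 to 12.35) than in iWAT control mice (12.37 to 12.61), although 6 of the 12 differences lay above 0 and 0 were called, and their part in the Hcar1 value was not tested. Without iWAT scoparia array 4 the Hcar1 difference was -1.29 (adjusted p = 0.0499), which likewise is a check of 1 array and not of any markers. The calls of P4ha2 and Hcar1 were lost without iWAT control array 1 or 4 or iWAT scoparia array 3, with adjusted p from 0.0564 to 0.0889, and that of Hcar1 also without iWAT scoparia array 2 (adjusted p = 0.0592). Over all 27 alternative settings the P4ha2 call was lost in 5 and the Hcar1 call in 6, with adjusted p up to 0.222 and 0.157. None of the 16 other glycolysis enzymes, 7 transporters and 15 side-branch genes was called in iWAT, where the smallest p values belonged to Pfkm (-0.76 ± 0.29, adjusted p = 0.0859), Slc2a8 (-0.86 ± 0.30, adjusted p = 0.0685) and Gys1, glycogen synthase (-0.90 ± 0.29, adjusted p = 0.0577).

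**Figure D5:**
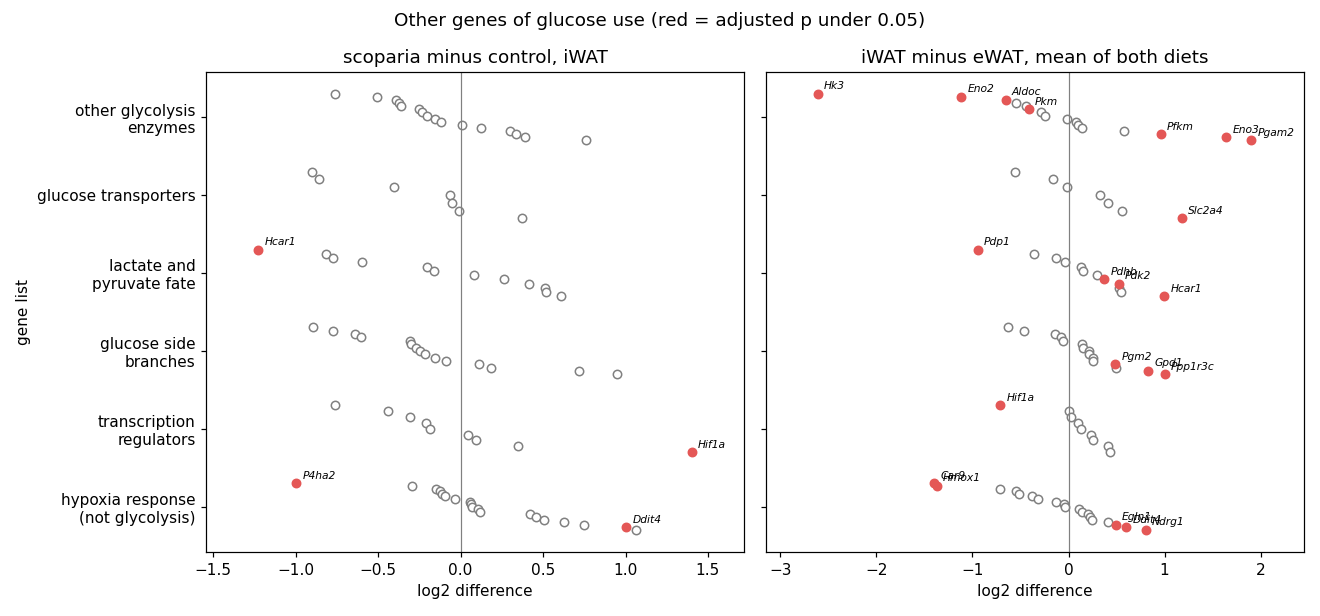
Log2 differences (x axis) of the tested genes in 6 lists of glucose use and hypoxia response (y axis), scoparia minus control in iWAT on the left and iWAT minus eWAT over both diets on the right; each point is a gene, and red points with names passed an adjusted p of 0.05. On the left 4 genes passed, Hif1a, Ddit4, Hcar1 and P4ha2, and on the right Hk3 lies lowest at -2.61.

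Over both diets 3 of the 19 hypoxia response genes were called higher and 2 lower in iWAT, shares no larger than the 15.9% and 13.6% of all genes. Hmox1, heme oxygenase 1, which macrophages also make, was lower (-1.37 ± 0.24, adjusted p = 0.000697), as was Car9, a carbonic anhydrase (-1.40 ± 0.27, adjusted p = 0.00136), which was detected on 1 of 4 iWAT control, 3 of 4 eWAT control and all 8 scoparia arrays. The iWAT means of Car9, 5.02 in control and 5.07 in scoparia mice, lay near background, so that the size of its depot difference is uncertain. Ndrg1 was higher (0.81 ± 0.16, adjusted p = 0.00196), as was Egln1, a prolyl hydroxylase that marks HIF-1 for decay (0.49 ± 0.14, adjusted p = 0.0151), although 1 of its 2 other probes had the opposite sign in scoparia mice. The macrophage markers moved with Hmox1 and Car9 between depots. In eWAT control mice both genes and the macrophage mean were lowest on array 2 and highest on array 3. In iWAT control mice both genes were highest on array 1, where the macrophage mean was lowest (9.44). There they were lowest on array 3, where that mean was highest (9.79). The part of these markers in Hmox1 and Car9 was not tested.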

How the data were processed

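RNA was hybridised to 16 Illumina bead arrays (4 groups of 4). The deposited scanner table holds, per the file headers, a mean signal intensity and a detection p-value per probe and array, over 25697 probes. GenomeStudio and limma 3.18.13 appear in the submitters' processing notes without their roles. The authors' normalized signal intensity was used as an alternative only; per the file headers it is a signal per probe, and no source used here states its steps.

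The scanner intensities were background-corrected and quantile-normalized with neqc (limma 3.58.1, R 4.3.3; offset 16, log2). A probe was kept when its detection p fell under 0.05 on 4 or more arrays (15052 probes), and the brightest kept probe stood for a gene. Names were updated through RefSeq tables of GRCm38.p6: 20736 probes matched by symbol and 3872 by synonym. No source used here states the array's own build. The limma fit (lmFit, eBayes) used 4 group means over 16 arrays, or 8 means per animal for diet over both depots, with Benjamini-Hochberg adjustment over 11050 genes. How RNA samples relate to tissue pieces is unstated in the labels, so the tests cover the spread between these samples, part of which may be technical. Depots were paired by the animal numbers in the sample descriptions. Deviations of an animal's 2 arrays from their group means correlated at 0.315, -0.207, 0.201 and 0.00258 in control and 0.25, 0.034, 0.249 and 0.0676 in scoparia mice.

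The members and gene lists were chosen with earlier results of these data known. Named were all 9 members, up to 4 called genes of each list per comparison by smallest p (or the 1 with the smallest p), and the 2 genes most correlated with each member. Depot comparisons share samples with the diet comparisons. Alternatives were median scaling, the deposited normalized values, other offsets and filters, the mean of probes, fewer arrays, array weights, a trended and robust variance, an animal block and leaving out arrays. Figures were drawn with matplotlib 3.10.9. The script's fits were tested on simulated data.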

Additional observations from a re-analysis of the deposited data

How the results depend on the processing

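Of 1056 recomputed member differences, 994 kept their direction and side of the threshold, 7 lost a call, 10 gained 1 and 45 turned in sign, none of these called. The cause of these changes was not tested. Pfkl between depots over both diets stayed called in 25 of 26 settings. The number of members called rose from 0 to 3 for diet in iWAT under median scaling, which moved the median of all genes from -0.06 to -0.16 there, and for depot in control mice, where that median became 0.14, from 1 to 2. Median scaling also moved that median to -0.24 for the difference of diet effects. For depot in control mice it was 0 with the mean of all kept probes, 0 with only the 8 arrays compared and 0 without iWAT control arrays 1 and 4 together, and from 0 to 1 with 1 array left out. For depot in scoparia mice it was 1 with only the 8 arrays compared and 2 with array weights (main 0). For depot over both diets it was 0 with the mean of all kept probes and 2 with array weights (main 1). For diet over both depots it was 1 with array weights, and from 0 to 1 with 1 animal left out. The count of all genes called ran from 0 to 3050 for diet in iWAT (972 in the main analysis), 0 to 147 for diet in eWAT (0), 0 to 626 for the difference of diet effects (6), 0 to 2796 for diet over both depots (0), 718 to 4076 for depot in control mice (2743) and 687 to 3693 for depot in scoparia mice (1170). Without iWAT control arrays 1 and 4 together the sign turned for Slc2a1 diet in iWAT (0.096), Aldoa diet in iWAT (0.14), Gapdh diet in iWAT (0.066), Pfkl diet effect iWAT minus eWAT (0.22), Gapdh diet effect iWAT minus eWAT (0.28), Tpi1 diet over both depots (0.14), Aldoa depot in control mice (-0.090), Tpi1 depot over both diets (-0.053), none of them called. Under median scaling the sign turned for Aldoa diet in eWAT (3e-04), Ldha diet in eWAT (0.0092), Aldoa diet effect iWAT minus eWAT (-0.68), Gapdh depot in control mice (0.32), Aldoa depot in scoparia mice (-0.086), Ldha depot in scoparia mice (-0.12), none of them called. Under array weights the sign turned for Aldoa diet effect iWAT minus eWAT (-0.041), Gapdh depot in control mice (0.044), Tpi1 depot in scoparia mice (0.023), none of them called. With 1 array left out the sign also turned for uncalled values, which ranged from -0.11 to 0.096 for Slc2a1 diet in iWAT, -0.024 to 0.51 for Slc2a1 diet in eWAT, -0.011 to 0.21 for Tpi1 diet in eWAT, -0.15 to 0.083 for Gapdh diet effect iWAT minus eWAT, -0.11 to 0.17 for Aldoa diet effect iWAT minus eWAT, -0.30 to 0.070 for Pfkl diet effect iWAT minus eWAT, -0.51 to 0.019 for Slc2a1 diet effect iWAT minus eWAT, -0.004 to 0.21 for Slc2a1 diet over both depots, -0.15 to 0.081 for Gapdh depot in control mice, -0.42 to 0.11 for Slc2a1 depot in control mice, -0.22 to 0.041 for Tpi1 depot in scoparia mice, -0.11 to 0.0087 for Gapdh depot over both diets. With the animal as a replicate block, paired by number, Pfkl differed between depots by 0.80 in control mice (adjusted p = 0.0236), 0.66 in scoparia mice (adjusted p = 0.076) and 0.73 over both diets (adjusted p = 0.00561), and the members called in the comparisons with such a fit stayed at 0, 0, 0, 1, 0 and 1. For diet over both depots the means per animal leave no further block. The estimation of array weights stopped before its convergence tolerance was reached, which limits the values under that setting.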
